A study of Mus musculus with 4 samples.

Results

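The aging library and the CTL library of proangiogenic cells (PACs) were compared for all 568 mature microRNAs (miRs) that the deposited table lists, and 154 of them had at least 100 reads per 1000000 mapped reads (RPM) in CTL or in aging. These were 2 of the 4 libraries of the series, which was made to study how cardiovascular risk factors act on the miRs of PACs. The CTL library came from C57Bl/6 mice aged 2 months and the aging library from C57Bl/6 mice aged 16 months. The SMK library came from C57Bl/6 mice aged 2 months exposed to cigarette smoke, and the HC library from APOE-/- mice aged 2 months on a Western-type diet, which lack apolipoprotein E, and both served here as further young libraries. Mice of all 4 groups had hindlimb ischemia by removal of the femoral artery, and PACs were bone marrow cells taken 2 days later and grown for 4 days on fibronectin in endothelial growth medium. Each library was 1 pool, and the labels give 2 pooled samples for aging, 6 for CTL and 4 each for SMK and HC, whereas the methods state pools of 4 to 6 for each group. Age, pool size, culture and library could therefore not be told apart, and no test of age was possible. The makeup of the reads also differed. The read summary of the study lists fewer miR reads and more reads that were too short in aging than in CTL, although aging had more reads in total. SMK and HC also had fewer miR reads than CTL, with fewer reads in total. The part of read makeup in the folds was not tested. In bulk RNA, fewer cells of a type and less of a miR per cell also cannot be told apart.

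A miR is a short RNA that guides the Argonaute protein to messenger RNAs, mostly through its seed, the stretch from base 2 to base 8, and lowers their translation and stability. PACs in culture are largely myeloid cells that take on some endothelial features and support the growth of new vessels through the factors they release. Several miRs are so restricted that they mark cell types, such as miR-223 and miR-142a for blood cells, miR-126a for endothelium, and miR-143, miR-145a and miR-199a for smooth muscle, fibroblasts and other mesenchymal cells.

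The sequences on which the comparison turns are given first, 5′ to 3′ with the seed in capitals, from RefSeq annotation of GRCm38.p6, in which 487 of the 568 miRs (138 of the 154) were matched. The first set holds miRs that were lower in aging than in each young library, the second the sequence relatives from which some of them differed by a single base, and the third miRs that were higher in aging than in CTL.
miR-31-5p: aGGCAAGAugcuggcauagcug
miR-218-5p: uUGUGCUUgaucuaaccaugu
miR-10b-5p: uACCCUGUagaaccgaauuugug
miR-196a-5p: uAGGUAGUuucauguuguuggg
miR-196b-5p: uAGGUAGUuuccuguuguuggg
miR-126a-3p: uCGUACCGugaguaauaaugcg
miR-199a-3p/miR-199b-3p: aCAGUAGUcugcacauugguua
miR-199a-5p: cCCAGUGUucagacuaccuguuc
miR-130a-3p: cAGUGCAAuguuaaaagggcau
miR-100-5p: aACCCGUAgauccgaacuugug
miR-30a-5p: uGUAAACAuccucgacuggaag
miR-190a-5p: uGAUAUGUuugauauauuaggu
miR-10a-5p: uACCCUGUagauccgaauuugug
miR-99a-5p: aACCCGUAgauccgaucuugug
miR-30e-5p: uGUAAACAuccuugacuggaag
miR-664-5p: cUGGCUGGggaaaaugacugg
miR-7015-5p: uCUGUGCAguaggcuguggguuc
miR-501-3p: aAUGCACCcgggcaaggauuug
miR-423-5p: uGAGGGGCagagagcgagacuuu
miR-361-5p: uUAUCAGAaucuccagggguac
miR-222-3p: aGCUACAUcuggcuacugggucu
miR-221-3p: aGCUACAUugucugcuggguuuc
miR-23a-3p: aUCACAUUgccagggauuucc
The pairs miR-196a-5p and miR-196b-5p, miR-10a-5p and miR-10b-5p, miR-100-5p and miR-99a-5p, miR-30a-5p and miR-30e-5p, and miR-221-3p and miR-222-3p each share their seed, so that the members of a pair are predicted to reach largely the same messenger RNAs.

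A fold is the RPM of aging over that of CTL unless another library is named, and the range in parentheses is its exact 95% interval from the counts (conditional binomial). The interval covers counting error only and compares the libraries, not old with young mice. Whole counts were recovered from the RPM of every miR, and the totals were between 1038986 counts (HC) and 2541732 counts (CTL), with 1568958 in aging. The blood cell markers were abundant in aging, with 1.26-fold of CTL for miR-142a-3p and 1.27-fold for miR-223-3p, and the 7 listed myeloid miRs summed to 77117 RPM in aging and 60396 RPM in CTL. Markers of red cell precursors (4 listed miRs, 47.8 RPM in sum in aging and 65.7 RPM in CTL) and of striated muscle (4 listed, 21.7 RPM in aging and 64.9 RPM in CTL) were low in both libraries. The liver miR, miR-122-5p, was at 11.8 RPM in CTL and 12.7 RPM in aging, and the epithelial miR-200b-3p at 18.5 RPM in CTL and 19.1 RPM in aging. Both were among the less abundant of the 10 listed epithelial and liver miRs, and others were less even. The 3 that reached 100 RPM in either library were miR-192-5p, miR-194-5p and miR-203-3p. Their folds were 0.719, 0.839 and 1.64. The most abundant of them, miR-192-5p, reached 336 RPM in CTL.

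In aging, 41 of the 154 miRs (26.6%) were lower than in CTL, below the limit of 0.8-fold, and 51 (33.1%) were higher, above the limit of 1.6-fold, so that 59.7% were past a limit. Scaling by the median ratio, which shifted every log2 fold by -0.15, gave 51 lower and 40 higher miRs, and a trimmed mean of log ratios, with a shift of -0.39, gave 64 and 26. Of the 10 lowest folds, 6 were of listed stromal (mesenchymal) miRs, led by miR-31-5p at 0.0933-fold, miR-218-5p at 0.262-fold and miR-143-3p at 0.299-fold. A further 1 was of the endothelial miR-126a-5p, and miR-542-3p, miR-130a-3p and miR-196b-5p were in neither list. Of the 154 miRs, 10 were in the stromal list and 4 in the endothelial list. The largest increases were at miRs of low level in CTL, such as miR-7015-5p at 7.86-fold and miR-328-3p at 6.39-fold. The whole interval lay past the limit for 26 of the lower and 43 of the higher miRs. There were 12 miRs below 0.5-fold, 34 above 2-fold and 12 above 3-fold. Of the higher miRs, 20 were under 100 RPM in CTL, and 8 of the lower miRs were under 100 RPM in aging. The members nearest to the limits were miR-125b-1-3p (0.789) and miR-101a-3p (0.801) on the lower side, and miR-185-5p (1.59) and miR-186-5p (1.61) on the higher side.

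**Figure D1:**
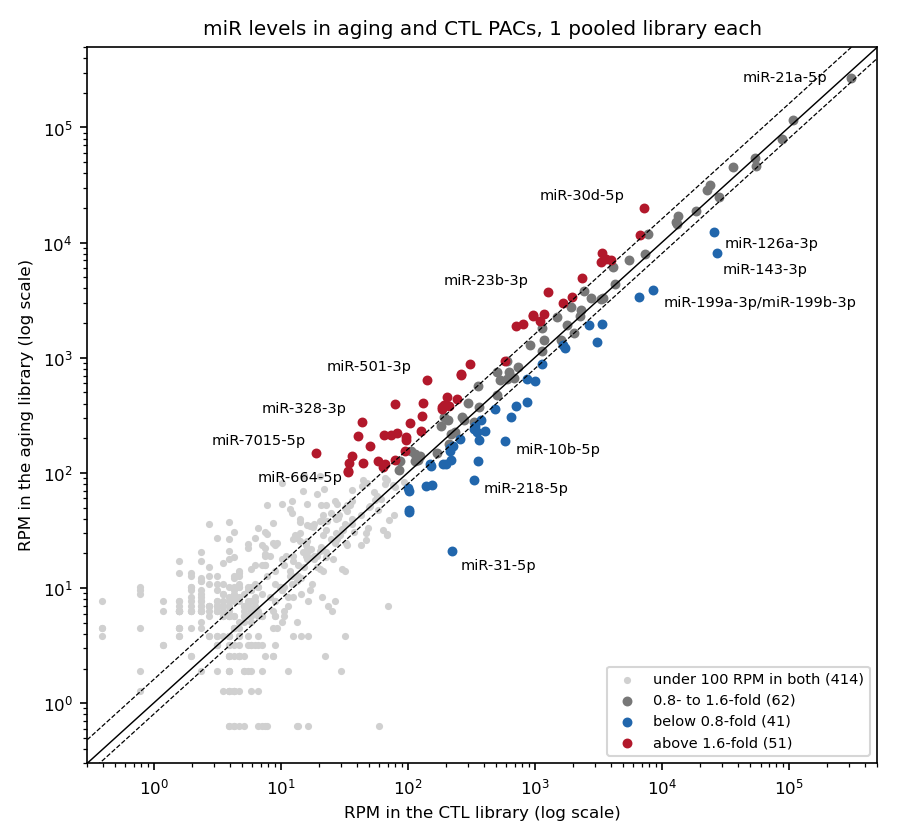
RPM of each of the 568 miRs in the CTL library (x axis, log scale) against the aging library (y axis, log scale), 1 point per miR and 1 pooled library per axis. The solid line marks equal levels and the dashed lines mark 0.8- and 1.6-fold, with 41 miRs under the lower line and 51 over the upper one among the 154 with at least 100 RPM in either library.

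On the RPM scale, fewer of the most abundant miRs were past a limit. Below a mean of 1000 RPM, 31 of 95 miRs were lower and 35 were higher, whereas from 1000 to under 10000 RPM these were 8 and 15 of 43. At a mean of 10000 RPM or more, only 3 of 16 miRs were past a limit, namely miR-143-3p and miR-126a-3p on the lower side and miR-30d-5p on the higher side. This count depended on the scaling and was 7 of 16 with the median ratio, which put miR-21a-5p, miR-146a-5p, let-7f-5p and miR-29a-3p below 0.8-fold as well, and 9 of 16 with the trimmed mean. The exchange in RPM was nevertheless carried by such abundant miRs. The miR of highest level, miR-21a-5p, which is induced in activated myeloid cells, was at 310000.0 RPM in CTL and 267374 RPM in aging, which was a change of -42627 RPM at only 0.862 (0.859 to 0.866)-fold. It was followed by miR-143-3p (-18971 RPM) and miR-126a-3p (-13576 RPM). The main gains in RPM were those of miR-30d-5p (12740 RPM), the myeloid miR-142a-3p (9346 RPM) and miR-16-5p (9133 RPM), which restrains the cell cycle. In all, 370 miRs were above CTL, by 112235 RPM together, and 198 miRs below it, with a change of -117440 RPM.

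The other young libraries separated the decreases from the increases. Among 161 miRs with at least 100 RPM in any of the 4 libraries, aging was below 0.8 times the lowest young level for 23 miRs (14.3%), and above 1.6 times the highest young level for 2 (1.24%). CTL was itself the lowest of the 4 libraries for 88 of the 161 miRs and lay below 0.8 times each of the others for 57 (35.4%). For comparison, SMK was past these limits for no miR on the low side and 1 on the high side, and HC for 2 and 10. Of the 41 miRs lower than in CTL, aging was the lowest library for 30. Of the 51 miRs higher than in CTL, CTL was the lowest library for all 51, aging was the highest for 31, and HC was above aging for 20.

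The same split was seen when another young library took the place of CTL. Against SMK, 34 of 153 miRs were lower in aging (22.2%) and 7 were higher (4.58%), and against HC 47 of 157 were lower (29.9%) and 3 were higher (1.91%). Of the 41 miRs lower than in CTL, 28 were also lower than in SMK and 21 lower than in HC. Of the 51 higher miRs, 7 were also higher than in SMK and 3 higher than in HC, and 43 were higher than in CTL alone. Against the mean of the 3 young libraries, 32 miRs were lower and 10 were higher, the latter being miR-669a-3p/miR-669o-3p, miR-664-5p, miR-1198-5p, miR-326-3p, miR-7015-5p, miR-23b-3p, miR-142a-5p, miR-30d-5p, miR-3074-5p and miR-324-5p. Different conditions and pool sizes stand behind the young libraries, so that their range is not a replicate spread.

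The 23 miRs below all young levels were chosen on the aging values and are therefore described and not tested. Together they took 7.37% of the RPM in CTL, 7.30% in SMK, 4.83% in HC and 3.05% in aging. Of these miRs, 9 were in the list of mesenchymal (stromal) miRs, 3 in the endothelial list and 5 in the list of Hox cluster and stem cell miRs, with 15 in at least one of them. Those lists held 10, 4 and 12 of the 154 miRs with at least 100 RPM in CTL or aging, and the 4 endothelial ones came from the Mir126 locus alone. They were drawn up with earlier results of these data known, so these counts are a description. Among the young libraries, the highest level of one of the 23 miRs was 1.33 times the lowest in the median and at most 2.31 times.

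**Figure D2:**
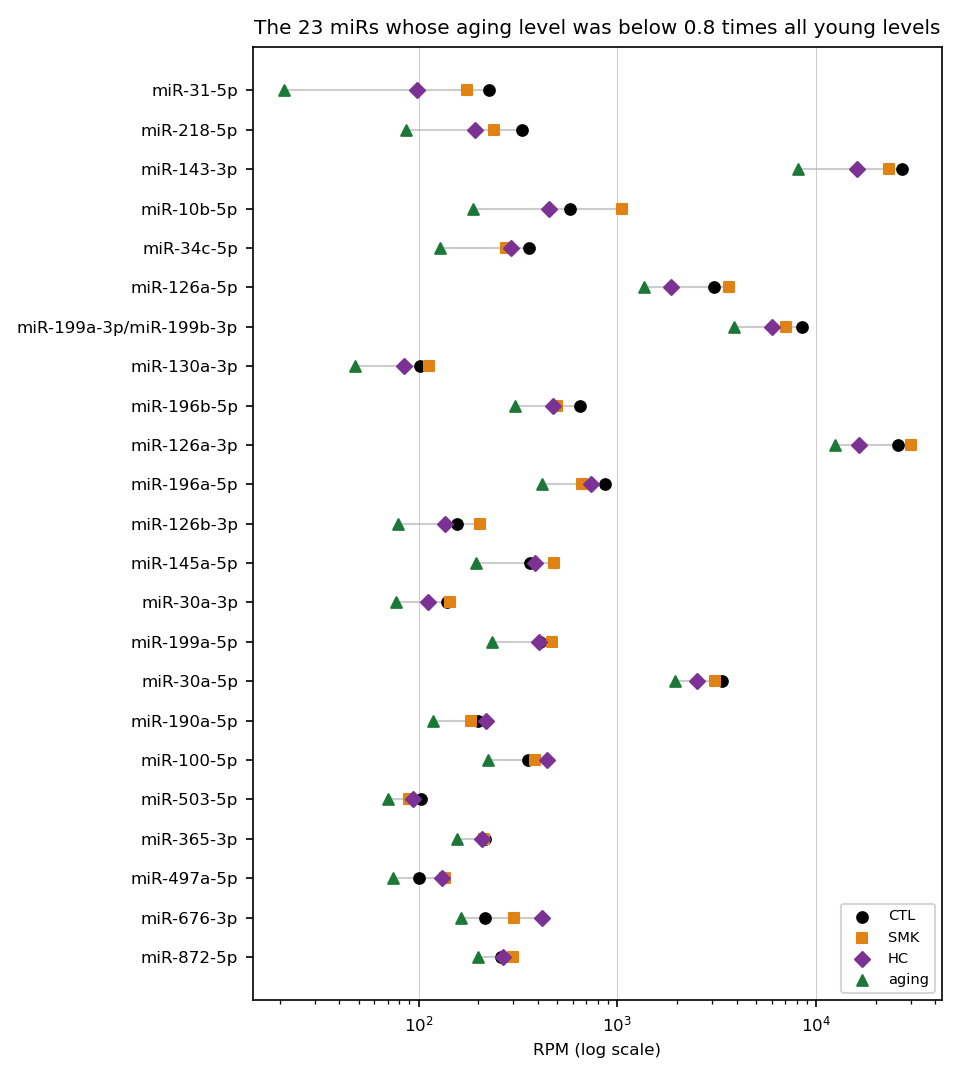
RPM (x axis, log scale) of the 23 miRs for which aging was below 0.8 times the lowest of the 3 young libraries, in order of the fold over CTL, with 1 marker per library (triangle, aging, and other markers, CTL, SMK and HC). The aging marker is the leftmost one in every line, and the distance to the nearest young marker is widest for miR-31-5p.

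All 10 stromal miRs with at least 100 RPM were lower in aging than in CTL, beside 26.6% of all 154, with a median log2 fold of -1.31 against 0.24 over all 154 miRs. The list was drawn up with earlier results of these data known, so this count is a description. Both miR-31-5p and miR-218-5p reached 100 RPM in CTL but not in aging. Of the 8 listed stromal miRs under 100 RPM, miR-214-3p (2.14-fold) and miR-708-5p (1.56-fold, 33.4 RPM in CTL and 52.3 RPM in aging) were above CTL. The 18 listed stromal miRs, those of low level included, summed to 13849 RPM in aging against 39472 RPM (CTL), 34590 RPM (SMK) and 25455 RPM (HC). Of the 18, 15 were lowest in aging, beside 38 (23.6%) of the 161 miRs with at least 100 RPM in any library. The sum was led by miR-143-3p, which is made from a shared transcript with miR-145a in smooth muscle and fibroblasts. Its level was 8097 RPM in aging against 27068 RPM (CTL), 23236 RPM (SMK) and 16172 RPM (HC), a fold of 0.299 (0.294 to 0.305) over CTL. Its partner miR-145a-5p was at 364 RPM in CTL and 194 RPM in aging, beside 483 RPM (SMK) and 384 RPM (HC), which gave a fold of 0.532 (0.466 to 0.606). Aging was below all 3 young libraries for both miRs, and HC was the young library nearest to it for miR-143-3p.

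The lowest fold of the 154 miRs was that of miR-31-5p, which favors endothelial migration and is made from the exon of a long noncoding RNA at chr4:88910557-88910662 of GRCm38 on the minus strand. It was at 21.03 RPM in aging against 225 RPM (CTL), 175 RPM (SMK) and 98.2 RPM (HC), with a fold of 0.0933 (0.0636 to 0.133), which rested on 33 counts in aging and 573 in CTL. Against HC, the young library nearest to it, the fold was 0.214 (0.140 to 0.320). Next was miR-218-5p, which is produced from introns of Slit2 (chr5:48223942-48224051) and Slit3 (chr11:35616816-35616925), genes of guidance ligands for axons and vessels. Its level was 330.5 RPM in CTL and 86.7 RPM in aging, beside 240.1 RPM (SMK) and 193 RPM (HC), and its fold was 0.262 (0.217 to 0.315). Aging lay below the other 3 libraries for both miRs, and CTL was the highest of the 4.

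The miR-199a hairpins give both of their arms, and one hairpin, Mir199a-2 (chr1:162217814-162217923), lies in an exon of Dnm3os, a noncoding transcript of mesenchymal cells. The 3p arm, which the table lists jointly for miR-199a and miR-199b, was at 3875 RPM in aging against 8551 RPM (CTL), 7051 RPM (SMK) and 5989 RPM (HC), a fold of 0.453 (0.440 to 0.466). The 5p arm was at 406 RPM in CTL and 233 RPM in aging, beside 471 RPM (SMK) and 402 RPM (HC), a fold of 0.574 (0.508 to 0.647). Both arms were thus lowest in aging. By contrast, miR-214-3p, which the same Dnm3os transcript carries, was under 100 RPM in each library and was at 57.4 RPM in aging against 26.8 RPM (CTL), 85.03 RPM (SMK) and 93.4 RPM (HC), so that CTL and not aging was the lowest library. The stromal miRs of low level that were below CTL included the minor arm miR-143-5p (0.419-fold), miR-145a-3p (0.435-fold) and miR-199b-5p (0.231-fold).

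A further decrease within the stromal list concerned the miR-34b and miR-34c pair, which p53 induces together with miR-34a and which is not particular to stromal cells. The level of miR-34c-5p was 359 RPM in CTL and 128 RPM in aging, beside 274 RPM (SMK) and 294 RPM (HC), a fold of 0.357 (0.305 to 0.416), and miR-34b-5p had 3 counts in aging against 76 (CTL), 35 (SMK) and 14 (HC). In contrast, miR-34a-5p, which has another locus and which favors senescence by repressing Sirt1, was at 8043 RPM in aging against 7376 RPM (CTL), 7262 RPM (SMK) and 7095 RPM (HC), a fold of 1.09 (1.07 to 1.12). The decrease thus did not extend to the abundant member of the family. The remaining listed stromal miRs past the limit were miR-152-3p (0.628-fold) and miR-100-5p (0.633-fold), in addition to miR-10b-5p.

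All 4 endothelial miRs with at least 100 RPM were lower than in CTL, beside 26.6% of all 154, with a median log2 fold of -1.02. They all come from 1 place, Mir126a in Egfl7 (chr2:26591357-26591429) and Mir126b on the opposite strand, and are therefore not 4 separate observations. The main product, miR-126a-3p, which sustains VEGF signaling in endothelium, was at 25999.6 RPM in CTL and 12424 RPM in aging, beside 30016 RPM (SMK) and 16558 RPM (HC), with a fold of 0.478 (0.470 to 0.486). Its level was thus lower in aging and, to a lesser degree, in HC than in CTL, and higher in SMK. The other arm, miR-126a-5p, was at 1372 RPM in aging against 3077 RPM (CTL), 3667 RPM (SMK) and 1865 RPM (HC), a fold of 0.446 (0.425 to 0.468). The fold against HC was 0.750 (0.735 to 0.766) for the 3p arm and 0.735 (0.691 to 0.782) for the 5p arm. The names miR-126b-5p (0.587-fold) and miR-126b-3p (0.509-fold) stand for the opposite strand of the same place, so that they may share reads with miR-126a and are uncertain as separate miRs. The other listed endothelial miRs, both under 100 RPM, went opposite ways. The level of miR-139-5p was 78.3 RPM in CTL and 43.3 RPM in aging, beside 55.1 RPM (SMK) and 59.7 RPM (HC), a fold of 0.554 (0.414 to 0.732), whereas that of miR-139-3p was 52.9 RPM in aging against 20.9 RPM (CTL), 47.3 RPM (SMK) and 91.4 RPM (HC), a fold of 2.54 (1.78 to 3.65).

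Within the list of Hox cluster and stem cell miRs, 6 of 12 miRs with at least 100 RPM were lower and none was higher, beside 26.6% lower and 33.1% higher among all 154. The genes for miR-10b and miR-196 lie among the Hox genes, which set position along the body axis and which mesenchymal cells keep expressed, and miR-196 in turn represses Hox genes. The level of miR-10b-5p, from an intron of Hoxd3 and Hoxd4 (chr2:74726070-74726137), was 581 RPM in CTL and 187 RPM in aging, beside 1051 RPM (SMK) and 455 RPM (HC). Its fold of 0.322 (0.283 to 0.365) contrasted with that of SMK over the same CTL, which was 1.81. The level of miR-196a-5p was 416 RPM in aging against 868 RPM (CTL), 663 RPM (SMK) and 734 RPM (HC), a fold of 0.479 (0.439 to 0.523), and miR-196b-5p, from an exon of Hoxa9 (chr6:52230081-52230165), was at 653 RPM in CTL and 306 RPM in aging, beside 498 RPM (SMK) and 473 RPM (HC), a fold of 0.468 (0.422 to 0.519). These 2 miRs were lower to the same degree, whereas miR-10a-5p, from the HoxB cluster (chr11:96317165-96317274), was at 7013 RPM in aging against 5535 RPM (CTL), 6082 RPM (SMK) and 7049 RPM (HC) and stayed between the limits. The stem cell miR of highest level, miR-125b-5p, was at 13151 RPM in CTL and 14647 RPM in aging, beside 18941 RPM (SMK) and 31259 RPM (HC), so that aging lay within the young range. The fold of miR-130a-3p, which relieves the repression of angiogenesis by homeobox factors in human endothelial cells, was 0.467 (0.356 to 0.606), from 102 RPM in CTL and 47.8 RPM in aging.

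The other 8 of the 23 miRs were in none of these lists. Both arms of miR-30a were among them, at 3362 RPM in CTL and 1958 RPM in aging for miR-30a-5p and 139 RPM in CTL and 77.1 RPM in aging for miR-30a-3p. The level of miR-190a-5p, from an intron of Tln2 (chr9:67236660-67236726), was 119 RPM in aging against 199.9 RPM (CTL), 183 RPM (SMK) and 218 RPM (HC). For miR-676-3p, from an intron of Eda (chrX:100381097-100381185), it was 216 RPM in CTL and 164 RPM in aging, beside 301.2 RPM (SMK) and 419.6 RPM (HC), with CTL the lowest of the young libraries. The folds of the remaining miRs, namely miR-365-3p, miR-497a-5p, miR-503-5p and miR-872-5p, were between 0.683 and 0.762, and their intervals reached over 0.8. For these 4 miRs the decrease was thus near the limit.

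The lists by function crossed these groups. Of 8 proangiogenic miRs with at least 100 RPM, 6 were lower in aging than in CTL and 1 was higher, with a median log2 fold of -1.08. The lower ones were miR-31-5p, miR-10b-5p, miR-126a-5p, miR-130a-3p, miR-126a-3p and miR-210-3p, the miR induced by hypoxia-inducible factors, which was at 170.2 RPM in aging against 229.8 RPM (CTL), 215 RPM (SMK) and 137 RPM (HC) and hence not lowest in aging. The higher one was miR-378a-3p (1.77-fold), a miR of mitochondrial metabolism, which was under the limit with the median ratio and the trimmed mean. Of 15 antiangiogenic miRs, 5 were lower and 7 were higher, with a median log2 fold of 0.12, which was -0.03 with the median ratio and -0.27 with the trimmed mean of log ratios. The higher ones were miR-328-3p, miR-320-3p, miR-222-3p, miR-361-5p, miR-15b-5p, miR-92a-3p and miR-221-3p, and the lower ones miR-100-5p, miR-503-5p, miR-497a-5p, miR-20a-5p and miR-17-5p. The lists were drawn up with earlier results of these data known, and 26.6% of all miRs were lower and 33.1% higher.

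Among 13 miRs linked with senescence, 6 were lower than in CTL and 1 was higher, beside 26.6% and 33.1% of all 154, and with the median ratio or the trimmed mean 9 were lower and none was higher. The higher one was miR-22-3p, at 1969 RPM in CTL and 3353 RPM in aging, beside 2971 RPM (SMK) and 2554 RPM (HC) and 1.70-fold. The lower ones were miR-31-5p, miR-34c-5p, miR-29c-3p, miR-17-5p, miR-20a-5p and miR-19b-3p, the last 3 from the miR-17-92a cluster, which drives the cell cycle and declines with age in several tissues. The levels of miR-17-5p were 115 RPM in aging against 153 RPM (CTL), 119.8 RPM (SMK) and 93.4 RPM (HC), so that CTL stood above the other 3 libraries. On the RPM scale none of 5 miRs of macrophage inflammation was past a limit, but with the median ratio or the trimmed mean 3 of them, miR-146a-5p and both arms of miR-21a, were below 0.8-fold. In RPM, miR-146a-5p, a feedback inhibitor of Toll-like receptor signaling, was at 28097 RPM in CTL and 24669 RPM in aging, beside 21375 RPM (SMK) and 29869.5 RPM (HC), and miR-155-5p, which promotes inflammatory activation, at 649 RPM in aging against 611 RPM (CTL), 489 RPM (SMK) and 569.8 RPM (HC). Aging was the highest library for miR-155-5p and lay within the young range for miR-146a-5p.

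**Figure D3:**
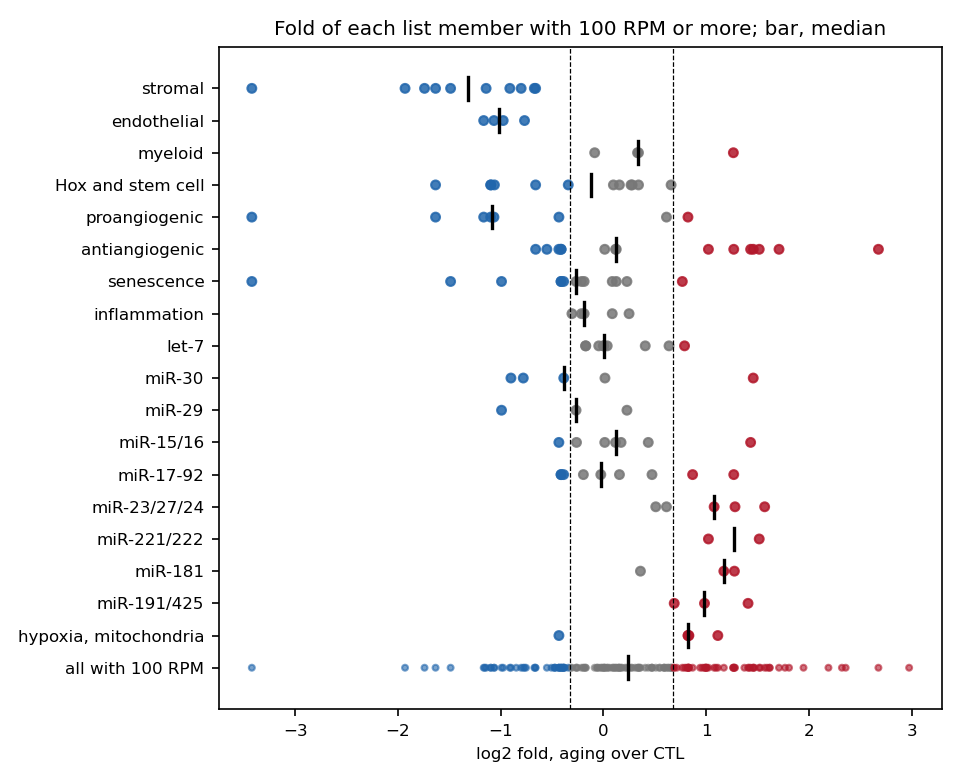
Log2 fold of aging over CTL (x axis) for the members with at least 100 RPM of 18 lists by cell type, function or family and for all 154 miRs (bottom line), 1 point per miR, with dashed lines at 0.8- and 1.6-fold and a bar at the median. All points of the stromal and endothelial lists lie left of the lower line, while no member of the lists led by miR-23, miR-221, miR-181 and miR-191 does.

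The myeloid miRs differed among themselves. Of 4 with at least 100 RPM, none was lower and 1 was higher than in CTL, beside 26.6% and 33.1% of all 154, and with the trimmed mean 1 was lower. Of the 7 listed, those of low level included, 3 were below CTL, beside 198 of all 568 miRs. Lowest in aging were 3 of the 7, beside 23.6% of the 161 miRs with at least 100 RPM in any library. The level of miR-223-3p, a brake on neutrophil activation, was 22760.1 RPM in CTL and 28832 RPM in aging, beside 31208 RPM (SMK) and 37472 RPM (HC), a fold of 1.27 (1.25 to 1.28), and aging lay within the young range. The level of miR-142a-3p, found in all blood cell lineages, was 45474 RPM in aging against 36128 RPM (CTL), 33972 RPM (SMK) and 30954 RPM (HC), a fold of 1.26 (1.25 to 1.27) over CTL, and aging was the highest library. Its other arm miR-142a-5p was at 964 RPM in CTL and 2315 RPM in aging, beside 1623 RPM (SMK) and 1522 RPM (HC), with a fold of 2.40 (2.28 to 2.53) over CTL, 1.43 (1.36 to 1.499) over SMK and 1.52 (1.43 to 1.61) over HC. The macrophage miR miR-511-3p, from the gene of the mannose receptor Mrc1, was of low level, with 11 counts in aging against 60 (CTL), 37 (SMK) and 28 (HC), a ratio of 0.297 (0.141 to 0.570) to CTL. Its other arm miR-511-5p had 1 count in aging against 10 (CTL), 17 (SMK) and 11 (HC), a ratio of 0.162 (0.00373 to 1.14), and both arms were lowest in aging. The lymphoid miR-150-5p was at 36.2 RPM in CTL and 35.7 RPM in aging, whereas miR-342-3p, another miR of lymphoid and myeloid cells, was at 2379 RPM in aging against 1187 RPM (CTL), 2919 RPM (SMK) and 4301 RPM (HC), which placed aging above CTL and below both other young libraries. Thus miR-223-3p and both arms of miR-142a were above their CTL levels in aging. The other arm of miR-223, miR-223-5p (0.943-fold), and both arms of miR-511 were instead below CTL and lowest in aging. The listed myeloid miRs therefore did not rise as a group. The stromal and endothelial sums were below their CTL levels. Under the trimmed mean of log ratios, miR-223-3p was at 0.965-fold and miR-142a-3p at 0.959-fold of CTL, so that their direction depended on the scaling, and against the mean of the young libraries miR-223-3p was at 0.946-fold. The part of cell makeup in the folds was not tested.

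Among the miRs higher than in CTL, only miR-664-5p and miR-669a-3p/miR-669o-3p were past 1.6 times all young levels. The level of miR-664-5p, made from an intron of Rab3gap2 (chr1:185242975-185243043), was 34.6 RPM in CTL and 121 RPM in aging, beside 47.3 RPM (SMK) and 70.3 RPM (HC). Its fold was 3.50 (2.70 to 4.56) over CTL, 2.56 (1.96 to 3.37) over SMK and 1.72 (1.31 to 2.29) over HC. The joint entry miR-669a-3p/miR-669o-3p, from a mouse cluster of near-identical copies in the gene Sfmbt2, was at 139.6 RPM in aging against 36.2 RPM (CTL), 65.3 RPM (SMK) and 72.2 RPM (HC). Its fold was 3.86 (3.01 to 4.97) over CTL, 2.14 (1.69 to 2.72) over SMK and 1.93 (1.48 to 2.55) over HC. Both were low in each library, with 190 and 219 counts in aging.

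The largest folds over CTL were of miRs that were low in CTL and not in the other libraries. The level of miR-7015-5p was 18.9 RPM in CTL and 149 RPM in aging, beside 94.0 RPM (SMK) and 141 RPM (HC), a fold of 7.86 (5.74 to 11.0). The level of miR-328-3p, which has been tied to the adhesion receptor CD44, was 279 RPM in aging against 43.7 RPM (CTL), 155 RPM (SMK) and 609 RPM (HC), a fold of 6.39 (5.18 to 7.95) over CTL but of 0.458 (0.405 to 0.518) over HC. The 3p arm of miR-151 was at 40.9 RPM in CTL and 209.7 RPM in aging, beside 175 RPM (SMK) and 360.0 RPM (HC), and miR-423-5p, from an intron of Nsrp1 (chr11:77078064-77078172), was at 397 RPM in aging against 79.5 RPM (CTL), 250.3 RPM (SMK) and 517 RPM (HC). In each of these 4 miRs CTL was the lowest library and SMK the next. The level of miR-501-3p, made from an intron of Clcn5 (chrX:7241243-7241351), was 142 RPM in CTL and 646 RPM in aging, beside 492 RPM (SMK) and 1040.4 RPM (HC), so that its fold of 4.56 (4.04 to 5.16) over CTL stood beside one of 0.621 (0.570 to 0.677) over HC.

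**Figure D4:**
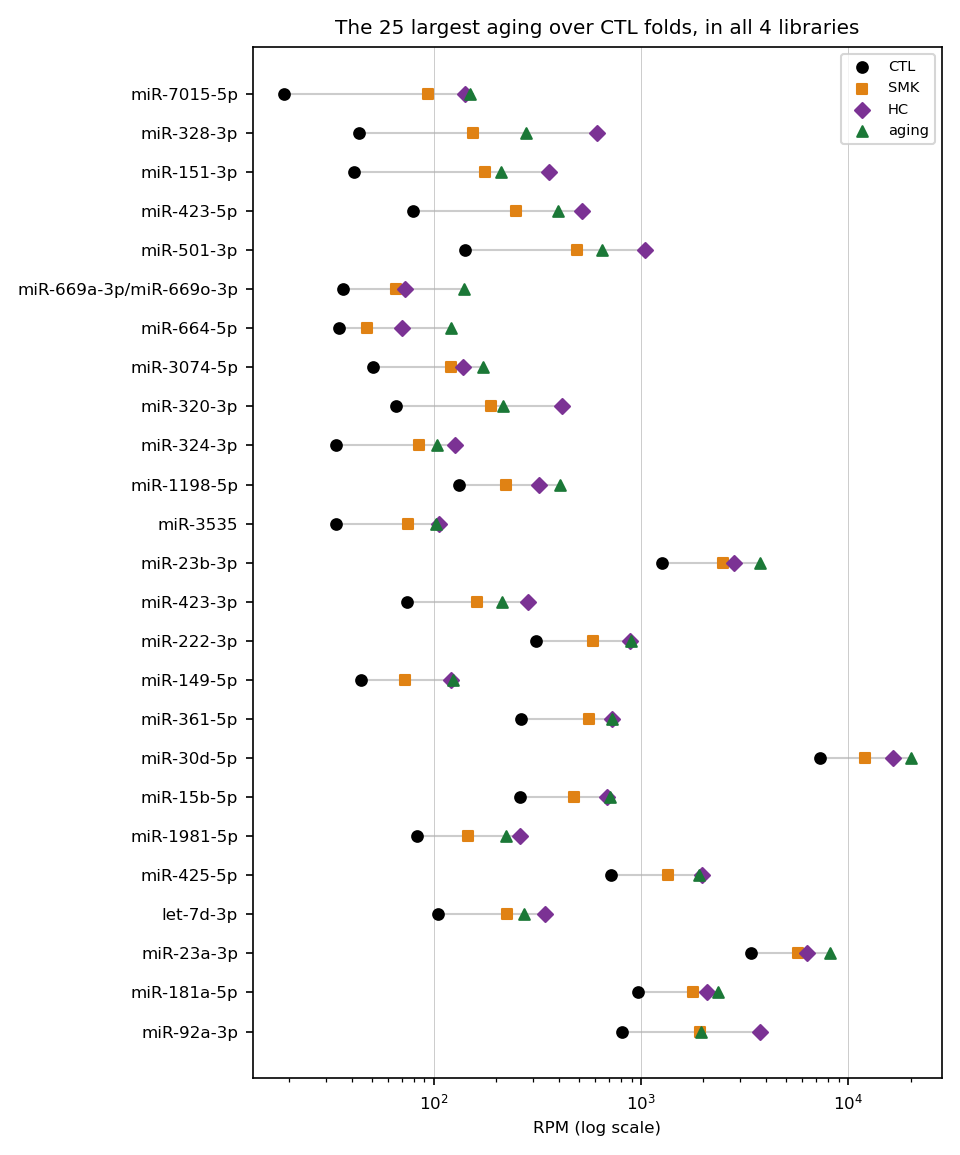
RPM (x axis, log scale) of the 25 miRs with the largest fold of aging over CTL, in order of that fold, with 1 marker per library (triangle, aging, and other markers, CTL, SMK and HC). The CTL marker is the leftmost one in every line, while the aging marker lies right of all others by more than 1.6-fold only for miR-669a-3p/miR-669o-3p and miR-664-5p.

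Several families of intermediate and high level were higher than in CTL. Of 5 miRs of the miR-23, miR-27 and miR-24 clusters, which are found in endothelium and myeloid cells, 3 were higher and none lower, beside 33.1% and 26.6% of all 154. Of the 9 listed members, 4 of them under 100 RPM, 8 were highest in aging. This was so for 55 (34.2%) of the 161 miRs with at least 100 RPM in any library. The level of miR-23b-3p was 3748 RPM in aging against 1263 RPM (CTL), 2479 RPM (SMK) and 2820.1 RPM (HC), a fold of 2.97 (2.84 to 3.10) over CTL and 1.33 (1.27 to 1.39) over HC. The level of miR-23a-3p was 3377 RPM in CTL and 8204 RPM in aging, beside 5714 RPM (SMK) and 6361 RPM (HC), and its fold 2.43 (2.36 to 2.497). The related miR-27b-3p, at 11842 RPM in aging against 7740.4 RPM (CTL), 8052 RPM (SMK) and 7530.4 RPM (HC), stayed under the limit at 1.53 (1.499 to 1.56). For all 3 miRs aging was above each young library, but by less than 1.6-fold over the highest one.

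The pair miR-221-3p and miR-222-3p, which represses the stem cell factor receptor Kit and restrains endothelial migration, lies on the X chromosome (chrX:19146294-19146388 and chrX:19146893-19146971). The level of miR-221-3p was 3359 RPM in CTL and 6819.8 RPM in aging, beside 4451 RPM (SMK) and 5565 RPM (HC), a fold of 2.03 (1.97 to 2.09). The level of miR-222-3p was 889 RPM in aging against 311 RPM (CTL), 587 RPM (SMK) and 883 RPM (HC), a fold of 2.86 (2.62 to 3.13) over CTL but of 1.01 (0.926 to 1.10) over HC. Both members of the miR-181 family that passed the limit, miR-181a-5p (2.42-fold) and miR-181b-5p (2.25-fold), which act in the development of blood cells, were highest in aging, at 972 RPM in CTL and 2351 RPM in aging, beside 1772 RPM (SMK) and 2076 RPM (HC) for the former. The 3 miRs of the miR-191 and miR-425 cluster were all higher than in CTL, of which 2 remained so with the median ratio and 1 with the trimmed mean, but miR-191-5p was at 7248 RPM in aging against 3666 RPM (CTL), 6633 RPM (SMK) and 9427 RPM (HC) and miR-425-5p at 718 RPM in CTL and 1906 RPM in aging, beside 1354 RPM (SMK) and 1976 RPM (HC), so that HC exceeded aging for both. The pair miR-103-3p and miR-107-3p, from introns of the Pank genes of coenzyme A synthesis, was at 1.75-fold and 1.92-fold, and 7021 RPM in aging against 4013 RPM (CTL), 5678 RPM (SMK) and 6458 RPM (HC) for the former.

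Members of a family with the same seed did not always move together. In the miR-30 family, which restrains fibrosis and shapes Notch signaling in vessels, miR-30d-5p was at 7292 RPM in CTL and 20032 RPM in aging, beside 11998 RPM (SMK) and 16538 RPM (HC), a fold of 2.75 (2.70 to 2.80). In contrast, miR-30a-5p was at 1958 RPM in aging against 3362 RPM (CTL), 3116 RPM (SMK) and 2526 RPM (HC), a fold of 0.582 (0.559 to 0.607), and miR-30b-5p at 710.1 RPM in CTL and 381 RPM in aging, beside 514 RPM (SMK) and 289.7 RPM (HC), a fold of 0.536 (0.488 to 0.588). The most abundant member, miR-30d-5p, made up 45.4% of the family sum in CTL and 74.1% in aging, beside 60.6% (SMK) and 71.9% (HC). The 5 members summed to 16073 RPM in CTL and 27035 RPM in aging, beside 19806 RPM (SMK) and 22992 RPM (HC). CTL was thus the lowest library for both the share and the sum, and HC was next to aging. In the miR-15 and miR-16 family, which restrains the cell cycle and Bcl2, miR-15b-5p was at 706 RPM in aging against 262 RPM (CTL), 474 RPM (SMK) and 686 RPM (HC), a fold of 2.70 (2.45 to 2.98). The abundant miR-16-5p was at 107167 RPM in CTL and 116300.0 RPM in aging, beside 107793 RPM (SMK) and 110890.0 RPM (HC), a fold of 1.09 (1.08 to 1.09), so that the family sums were near each other (110161 RPM in CTL and 119850 RPM in aging). The 10 let-7 miRs, which promote differentiation, summed to 199108 RPM in CTL and 203650 RPM in aging, while let-7f-5p made up 44.7% of that sum in CTL and 38.8% in aging, and let-7b-5p 3.41% and 5.76%. For let-7f-5p the share was 38.4% in SMK and 36.9% in HC, so that aging lay next to the other young libraries.

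Some miRs that differ by 1 base were on different sides of the limits, with positions counted from 1 at the 5′ end. From miR-10a-5p to miR-10b-5p the change is U12A, and the folds were 1.27 and 0.322. From miR-100-5p to miR-99a-5p it is A16U, and the folds were 0.633 and 1.21. From miR-30a-5p to miR-30e-5p it is C13U, and the folds were 0.582 and 1.01. In each of these 3 pairs the changed base lies outside the seed, and the member of lower level in CTL was the one below 0.8-fold. For miR-29a-3p and miR-29c-3p (C10U), which repress collagens, the folds were 0.831 and 0.503, but the level of miR-29c-3p was 3361 RPM in aging against 6684 RPM (CTL), 3502 RPM (SMK) and 2761 RPM (HC), with CTL above all others. By contrast, miR-196a-5p and miR-196b-5p (A12C) and miR-103-3p and miR-107-3p (G22C) were alike in each pair. Among the 138 miRs with a sequence, 38 pairs of 52 miRs were identical over their overlap or had up to 2 differences, 3 of them on opposite strands. Since reads could be shared within such a pair, the folds of these members are uncertain as separate values, more so where one member is far more abundant.

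Hairpins with a known position that lie within 10 kb of each other formed 22 groups with at least 2 miRs at 100 RPM. Some hairpins, such as Mir351, had no position, so that the groups are incomplete. In 13 groups the folds were all on one side of 1 on the RPM scale. With the median ratio, let-7c-5p and miR-16-5p, which are in such groups, were below 1-fold, so that this count depends on the scaling. Some miRs with several loci, such as miR-181a-5p, were in more than 1 group. In 2 of the groups found, a lower and a higher miR stood together. In the miR-17-92a cluster on chromosome 14, miR-17-5p, miR-20a-5p and miR-19b-3p were lower, with folds between 0.751 and 0.764, whereas miR-92a-3p, which restrains angiogenesis, was at 811 RPM in CTL and 1954 RPM in aging, beside 1931 RPM (SMK) and 3760.4 RPM (HC) and thus 2.41-fold. The other group, on the X chromosome, holds further copies of miR-19b and miR-92a, and the copies cannot be told apart. In the cluster of miR-322, miR-503 and miR-542, which slows the cell cycle, miR-542-3p (0.449-fold) and miR-503-5p (0.683-fold) were lower, while miR-322-5p (1.13-fold) was not. A further listed member of this cluster, miR-351-5p, whose hairpin had no position, was higher at 2.14-fold. Its level was 96.4 RPM in CTL and 206 RPM in aging, beside 233 RPM (SMK) and 310 RPM (HC). Lower and higher miRs thus stood together in this cluster too. For miR-542-3p the level was 45.9 RPM in aging against 102 RPM (CTL), 59.3 RPM (SMK) and 35.6 RPM (HC), so that HC was below aging.

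The ratio of the 2 arms of a hairpin does not depend on the scaling between libraries. Of 85 hairpins with at least 100 counts over both arms, 28 had arm shares whose exact 95% intervals did not overlap between CTL and aging. The median difference in the share of the 5p arm was 0.791 percentage points in size. The 5p arm took 51.4% of the miR-151 counts in CTL and 10.1% in aging, beside 17.7% (SMK) and 8.56% (HC). For miR-139, an endothelial and blood cell miR, it took 79.0% in CTL and 45.0% in aging, beside 53.8% (SMK) and 39.5% (HC). In both of these hairpins the main arm was 5p in CTL and 3p in aging, and aging lay between SMK and HC. Next came miR-674 (83.9% in CTL and 63.7% in aging), miR-214 (32.0% and 12.6%) and miR-17 (45.5% and 31.2%). In SMK and HC the shares were 65.3% and 50.9% for miR-674, 15.0% and 10.2% for miR-214, and 36.2% and 28.3% for miR-17. Aging thus lay between SMK and HC for these hairpins too, and CTL had the highest share. Among the 47 hairpins with at least 1000 counts, 15 had intervals apart and the main arm changed in none.

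Base composition moved with the fold. Across the 138 miRs with a sequence, Spearman's rho between GC content and the log2 fold over CTL was 0.399, as a description across miRs of the same libraries. It was 0.140 for the fold over SMK (137 miRs) and -0.187 for the fold over HC (139 miRs). Below 40% GC, 13 of 32 miRs were lower than in CTL and 2 were higher, and from 60% GC 1 of 12 was lower and 9 were higher. The median GC content was 43.5% for the lower miRs, 40.9% for those between the limits and 52.2% for the higher ones. The 19 with a sequence among the 23 miRs below all young levels had a median GC content of 45.5%, the same as all 138. The part of base composition in the folds over CTL, decreases and increases alike, was not tested.

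**Figure D5:**
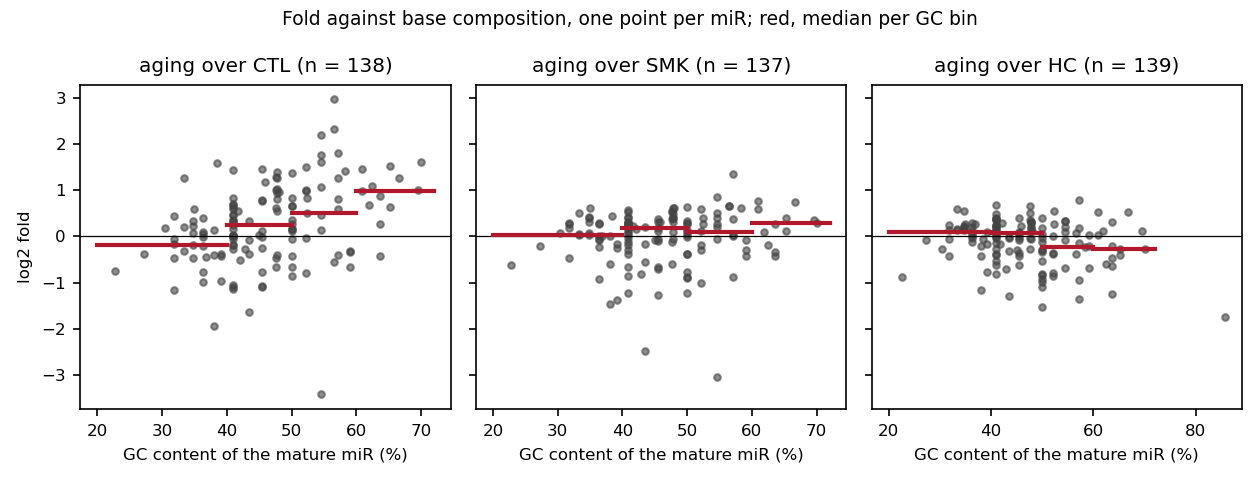
Log2 fold of aging (y axis) over CTL, SMK and HC (left to right) against the GC content of the mature miR in percent (x axis), 1 point per miR with at least 100 RPM in either library, with red lines at the median of the miRs under 40%, from 40% to under 50%, from 50% to under 60% and from 60%. The points climb from left to right in the CTL panel (rho 0.399, 138 miRs), hardly in the SMK panel (0.140, 137 miRs), and descend in the HC panel (-0.187, 139 miRs).

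At low level, 126 miRs had from 20 to under 100 RPM in CTL or aging, and 25 of these (19.8%) were below 0.8-fold and 55 (43.7%) above 1.6-fold. The lowest fold was that of miR-7090-3p, with 1 count in aging against 151 (CTL), 1 (SMK) and 1 (HC), so that it was high in CTL alone, and its ratio was 0.0107 (0.000270 to 0.0607). The muscle miR miR-206-3p had 6 counts in aging against 82 (CTL), 13 (SMK) and 11 (HC), and the red cell miR miR-451a had 4 counts in aging against 57 (CTL), 24 (SMK) and 54 (HC). The latter 2 were thus lowest in aging, as was miR-34b-5p. Among the highest folds, miR-463-3p had 56 counts in aging against 7 (CTL), 26 (SMK) and 27 (HC), a ratio of 13.0 (5.89 to 33.7), and miR-302a-5p, of a cluster known from pluripotent cells, had 59 counts in aging against 10 (CTL), 22 (SMK) and 16 (HC), a ratio of 9.56 (4.85 to 20.96). Aging was the highest library for both. In contrast, miR-217-5p, which represses Sirt1 in human endothelial cells and promotes their senescence, had 43 counts in aging against 8 (CTL), 27 (SMK) and 53 (HC). This was above CTL at a ratio of 8.71 (4.05 to 21.4), but HC had more counts than aging in a smaller library. Of 186 miRs with numbers from 1000 on, which are mostly late discoveries of low level, 140 (75.3%) were above CTL and 46 below, beside 65.1% above CTL among all 568 miRs. Only 7 reached 100 RPM, of which 5 were higher and none was lower, beside 33.1% and 26.6% of the 154.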

How the data were processed

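The authors deposited 1 table of RPM, with 568 mature miRs and 4 libraries. According to the methods, libraries were made with a QIAseq kit from total RNA, reads were mapped by bowtie against miRBase, in steps from mature miRs to other RNAs and GRCm38, and counts were normalized by library size. The submitters' processing notes instead list HTSeq 0.5.4, TopHat2 2.0.10 and bcl2fastq 2.20, a difference that remains unresolved. Whether reads with the same molecular identifier were merged is not given in the sources used here, so counts may not be independent molecules, and intervals cover counting error only. In each library the recovered total was below the number of miR reads in the read summary of the study. The reason for this difference was not tested. Reads of near-identical miRs may have been shared between them.

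Each value was a whole multiple of the smallest value of its library, within 0.001 count for 100% of values, which gave the total counts. The step of 1 count was 0.637 RPM (aging), 0.393 RPM (CTL), 0.599 RPM (SMK) and 0.962 RPM (HC). A count test was not possible with 1 library per group, so no p-value is given. The minimum of 100 RPM and the limits of 0.8 and 1.6 follow the methods of the study. The members, the 32 lists and the limits were chosen with earlier results of these data known. The miRs named were the 10 lowest and 10 highest folds, the 20 miRs of highest level, the list members furthest from 1-fold, the 5 lowest and 5 highest folds from 20 to under 100 RPM, the hairpins with the largest differences in arm share, the seed families of widest range, and the miRs past the limits against each young library. Other miRs, such as those that show the young libraries for a list or family and those nearest to a limit, were chosen after their values were seen. Hairpin positions and hosts are from GENCODE release M21 (GRCm38), by the same strand. Alternatives were other scalings, pseudocounts, minimums, limits and references. The work used Python 3.11.15 with pandas 2.3.3, numpy 2.4.6, matplotlib 3.10.9 and scipy 1.17.1, and the folds and intervals were tested on simulated counts.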

Additional observations from a re-analysis of the deposited data

Results flagged for a closer look

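For miR-10b-5p, aging and SMK were past opposite limits against the same CTL library, at 0.322-fold in aging and 1.81-fold in SMK. For miR-676-3p this was so for aging and HC, at 0.760-fold in aging and 1.95-fold in HC. These differences were not tested, since each condition had 1 library.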

How the results depend on the processing

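No paired analysis was possible because each group had 1 library, and for the same reason no replicate could be left out. The 41 lower miRs kept folds below 0.8 under all 3 scalings (median ratio, trimmed mean of log ratios, and totals without miR-21a-5p) and with 1 RPM added, and 40 did so with 10 RPM added. Of the 51 higher miRs, 42 kept folds above 1.6 with the median ratio, 31 with the trimmed mean and 48 without miR-21a-5p. Against the mean of the 3 young libraries, 31 lower and 10 higher miRs were kept. The number of lower miRs became 64 with the trimmed mean, 141 with no minimum, 66 from 20 RPM, 12 with limits of 0.5 and 2, 21 with symmetric limits, and 26 with the whole interval past the limit. The number of higher miRs became 26 with the trimmed mean, 10 against the mean of the young libraries, 7 against SMK, 3 against HC, 31 with 100 RPM required in CTL, 31 with 100 RPM in both libraries, 236 with no minimum and 106 from 20 RPM. The miRs below all young levels were 25, and those above them 2, after median ratio scaling. Arm shares differed in 15 hairpins, at 1000 counts. Among the 92 miRs past a limit, the direction turned only against the mean of the young libraries, for miR-320-3p (0.961-fold), miR-342-3p (0.849-fold), miR-351-5p (0.966-fold) and miR-92a-3p (0.902-fold). Of 16 abundant miRs between the limits, 11 turned under some alternative, 10 of them with the trimmed mean, and against the mean of the young libraries let-7f-5p (1.07-fold), miR-223-3p (0.946-fold) and miR-125b-5p (0.694-fold) did. Among 14 lists with a median past a limit, it turned for the lymphoid list (-0.24 against that mean, -0.020 with no minimum), the neuronal list (-0.24 with no minimum, -0.40 from 20 RPM), the miR-30 3p arms (0.052 with no minimum), the hypoxia and mitochondria list (-0.20 with the trimmed mean) and the miRs made without Drosha (-0.058 against that mean). Of the 15 lists with a median between the limits, 10 had it on the other side of 0 under some alternative, namely the antiangiogenic, myeloid, let-7, Hox and stem cell, miR-15 and miR-16, miR-17-92, miR-26 and miR-101, miR-29, miR-148 and miR-152, and miR-322 lists, so that no direction is given for these medians. The cause of these turns was not tested. The stromal median stayed between -1.71 and -1.03, and the endothelial median between -1.41 and -0.91, under every alternative run for them. In aging, 25 miRs had under 3 counts.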

Other observations

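MiRs of the imprinted Dlk1-Dio3 region, which mesenchymal and stem cells express, were all under 100 RPM and did not go one way. Of the 5 listed, miR-379-5p had 1 count in aging against 42 (CTL), 41 (SMK) and 9 (HC), and miR-411-5p had 1 count in aging against 35 (CTL), 22 (SMK) and 2 (HC), so that aging and, for miR-411-5p, HC were near the floor. In contrast, miR-127-3p was at 16.1 RPM in CTL and 54.2 RPM in aging, beside 38.9 RPM (SMK) and 68.3 RPM (HC), lowest in CTL. The minor arm miR-10b-3p had 1 count in aging against 34 (CTL), 21 (SMK) and 9 (HC), lowest in aging as was its main arm, and miR-335-5p, from an intron of the imprinted gene Mest, was at 29.3 RPM in aging against 69.2 RPM (CTL), 80.8 RPM (SMK) and 64.5 RPM (HC), also lowest in aging.

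In a list of miRs made without Drosha or from capped hairpins, such as miR-320 and miR-484, 4 were measured. Of these, miR-320-3p was at 65.7 RPM in CTL and 215 RPM in aging, beside 189 RPM (SMK) and 416 RPM (HC), miR-484 at 93.1 RPM in aging against 15.3 RPM (CTL), 60.5 RPM (SMK) and 129 RPM (HC) and miR-744-5p at 10.2 RPM in CTL and 82.2 RPM in aging, beside 74.8 RPM (SMK) and 195 RPM (HC). For each of these 3 miRs CTL was the lowest library, HC the highest and aging the next below HC. The miRs of epithelium and liver, 10 listed, summed to 898 RPM in CTL and 801 RPM in aging. Among them miR-205-5p, a miR of squamous epithelium, had 33 counts in aging against 10 (CTL), 17 (SMK) and 24 (HC), while the fold of miR-200a-3p, which was under 100 RPM in each library, was 0.540 (0.397 to 0.725).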
